A study of Mus musculus with 7 samples.

Results

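Klf13 and 4 related Krüppel-like factor genes, Klf9, Klf16, Klf10 and Klf11, were followed in RNA-seq libraries of Klf13-deficient and control oligodendroglia. They were chosen by gene symbol, for a structural relation to Klf13 and for binding of their proteins to the SIN3 corepressor, and make up 5 of the 49315 genes in the count tables. All 5 passed the filter on low counts. The cells were mouse primary oligodendroglia, prepared from dissociated brains of newborn pups by shake-off of progenitors (OPCs) from mixed glial cultures and removal of microglia. They had differentiated for 6 days in SATO medium, which contains the thyroid hormones T3 and T4, so that both groups received the hormones. The 4 control libraries came from wildtype pups and the 3 knockout libraries from Klf13-knockout pups. The deletion was constitutive and therefore not restricted to oligodendroglia, and the sources used here do not state which part of the gene it removes.

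Krüppel-like factors recognise GC-rich and CACCC-type DNA elements through C2H2 zinc fingers at the carboxyterminus of the protein. KLF9, KLF13 and KLF16 belong to the BTEB-like subgroup and KLF10 and KLF11 to the TIEG (TGF-beta-inducible early gene) subgroup, and in both an aminoterminal SIN3-interacting domain can recruit SIN3 and, with it, histone deacetylases. In oligodendrocytes KLF9 is known as a thyroid hormone-induced gene product that promotes differentiation. Because the proteins share binding elements and a corepressor, the comparison asks whether transcripts of the other 4 genes were higher where Klf13 was missing.

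The relation of the 5 genes is visible in the stretch that codes for the zinc fingers. It spans 243 bases in each gene, crosses 1 exon junction, and lies within the coding sequence of the first annotated transcript of each gene in GENCODE M21 (GRCm38). The stretches are printed 5′ to 3′, with capitals for bases that differ from Klf13.
Klf13: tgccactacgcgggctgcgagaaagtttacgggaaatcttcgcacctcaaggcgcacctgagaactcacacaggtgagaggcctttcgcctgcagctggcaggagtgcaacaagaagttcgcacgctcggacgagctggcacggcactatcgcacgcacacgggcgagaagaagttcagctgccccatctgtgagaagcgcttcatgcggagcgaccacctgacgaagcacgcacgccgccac
Klf9: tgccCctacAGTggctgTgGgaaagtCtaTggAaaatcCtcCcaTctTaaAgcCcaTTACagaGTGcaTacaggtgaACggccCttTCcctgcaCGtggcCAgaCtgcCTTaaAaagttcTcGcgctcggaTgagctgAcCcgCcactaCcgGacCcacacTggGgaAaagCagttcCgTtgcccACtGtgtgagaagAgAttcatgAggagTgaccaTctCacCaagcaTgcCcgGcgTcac
Klf16: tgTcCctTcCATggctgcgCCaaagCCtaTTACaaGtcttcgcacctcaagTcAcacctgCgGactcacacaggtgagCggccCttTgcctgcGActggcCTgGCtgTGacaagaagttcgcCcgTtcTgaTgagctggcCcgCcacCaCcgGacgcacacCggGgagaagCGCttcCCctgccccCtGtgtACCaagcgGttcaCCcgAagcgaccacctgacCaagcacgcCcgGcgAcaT
Klf10: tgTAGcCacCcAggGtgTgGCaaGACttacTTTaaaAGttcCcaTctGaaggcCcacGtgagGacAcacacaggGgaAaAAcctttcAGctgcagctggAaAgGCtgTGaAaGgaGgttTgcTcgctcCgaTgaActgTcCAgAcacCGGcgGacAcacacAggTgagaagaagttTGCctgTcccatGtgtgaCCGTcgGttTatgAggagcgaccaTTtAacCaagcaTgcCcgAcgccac
Klf11: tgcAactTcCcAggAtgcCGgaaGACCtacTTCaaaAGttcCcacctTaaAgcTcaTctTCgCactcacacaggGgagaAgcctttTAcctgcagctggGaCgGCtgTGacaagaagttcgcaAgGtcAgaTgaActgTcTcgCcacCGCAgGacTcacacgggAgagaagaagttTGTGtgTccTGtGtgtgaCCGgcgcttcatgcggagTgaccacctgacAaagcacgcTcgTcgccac
In the genome, these stretches with their intron lie at chr7:63891628-63938039 on the minus strand for Klf13, chr19:23142187-23164852 on the plus strand for Klf9, chr10:80569053-80576819 on the minus strand for Klf16, chr15:38295995-38296687 on the minus strand for Klf10 and chr12:24655704-24660352 on the plus strand for Klf11. They fall into exons 1 and 2 of the BTEB-like genes and exons 3 and 4 of Klf10 and Klf11. Klf16 shared 75.3% of the 243 bases with Klf13, Klf11 73.7%, Klf9 72.8% and Klf10 69.1%. Across the complete transcripts, the longest exact run shared by any pair of the 5 genes was 20 bases (ggctgtgacaagaagttcgc, in Klf16 and Klf11), whereas reads of 150 bases were sequenced. A read of full length could therefore be assigned to 1 of the 5 genes by its sequence.

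Promoters were available for 3 of the 5 genes and are shown because these proteins themselves bind GC-rich and CACCC-type elements. Each window holds 250 bases before and 50 bases after the RefSeq transcription start (GRCm38.p6). Capitals mark the GC box, spelled CCGCCC, and the CACCC box. Both were searched on both strands, and neighbouring matches may overlap, so that a longer run of capitals can hold more than 1 box.
Klf13, chr7:63938866-63939165, minus strand: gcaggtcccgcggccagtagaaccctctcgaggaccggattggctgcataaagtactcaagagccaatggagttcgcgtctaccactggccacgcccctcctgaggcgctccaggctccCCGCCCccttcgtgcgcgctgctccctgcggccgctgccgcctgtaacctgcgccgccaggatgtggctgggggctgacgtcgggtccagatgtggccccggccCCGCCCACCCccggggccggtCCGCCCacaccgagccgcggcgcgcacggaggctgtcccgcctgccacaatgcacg
Klf11, chr12:24651121-24651420, plus strand: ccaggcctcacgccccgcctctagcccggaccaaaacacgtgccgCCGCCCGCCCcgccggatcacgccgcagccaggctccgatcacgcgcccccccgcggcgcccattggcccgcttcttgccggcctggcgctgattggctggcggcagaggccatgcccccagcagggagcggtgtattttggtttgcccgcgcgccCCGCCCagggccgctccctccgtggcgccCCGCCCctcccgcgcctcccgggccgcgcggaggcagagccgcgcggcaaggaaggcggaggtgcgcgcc
Klf9, chr19:23140976-23141275, plus strand: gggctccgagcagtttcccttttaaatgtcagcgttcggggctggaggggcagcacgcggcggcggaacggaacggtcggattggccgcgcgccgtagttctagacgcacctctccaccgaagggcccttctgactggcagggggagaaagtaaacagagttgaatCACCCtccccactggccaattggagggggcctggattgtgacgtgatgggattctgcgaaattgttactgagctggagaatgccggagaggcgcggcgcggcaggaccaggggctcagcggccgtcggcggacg
The Klf13 window held 3 GC boxes and 1 CACCC box, the Klf11 window 4 GC boxes and no CACCC box, and the Klf9 window no GC box and 1 CACCC box. Of 32851 mouse promoter windows of the same length, 35.7% held a GC box, 10.7% held at least 3 and 5.5% at least 4. A CACCC box was found in 57.5%. The GC content was 72.0% for Klf13, 77.7% for Klf11 and 63.3% for Klf9.

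Between 24507471 and 59596479 counts fell on genes in each library. The share on 3 genes linked to ribosomal RNA (Gm42418, Gm23935 and Lars2) ranged from 6.03% to 18.0%, with libraries of both groups at either end. Genes were compared by the quasi-likelihood test of edgeR, adjusted by Benjamini-Hochberg, and called at adjusted p up to 0.05. Of 18352 tested genes 23.8% were called, 11.6% as higher and 12.2% as lower in knockout. With an absolute log2 fold change of 1 or more as a further condition, these shares were 3.97% and 3.08%. In 18.3% of the genes every knockout library lay above every control library, and in 18.0% below. Cell type markers moved as well. The summed level of 5 markers of myelinating oligodendrocytes (Mbp, Mag, Mog, Mobp, Cnp) was 13730 to 16680 CPM (counts scaled to library size) in control and 4190 to 4961 in knockout, and all 5 were called lower. The sum of 4 markers of newly formed oligodendrocytes was 3444 to 4086 against 2730 to 3008, with 3 called lower, and that of 4 OPC markers 1820 to 2119 against 2266 to 2539, with 2 called higher. All 7 astrocyte markers were called higher (2263 to 3142 against 4468 to 5259), and so were all 7 neuron markers (128 to 212 against 354 to 526). None of 6 microglia markers was called by edgeR, DESeq2 or limma voom, and 0 had an unadjusted p under 0.05 (253 to 1200 against 222 to 497), whereas control replicate 3 alone gave the value of 1200. Fibroblast and mural markers summed to 257 to 1131 against 116 to 265, with 1 of 6 called lower. Endothelial markers summed to 5.99 to 22.6 against 5.08 to 8.11, with 1 of 3 tested lower. A further endothelial marker, Cldn5, had 1 raw count in knockout replicate 2 and 0 in every other library. In bulk RNA, fewer cells of a type and less RNA per cell cannot be told apart. Whether these marker shifts had a part in the differences of the 5 Klf genes was not tested. The labels name the libraries biological replicates, and p-values measure the spread between these samples.

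Klf13 transcripts were strongly reduced in the libraries labelled knockout but were still detected. The gene lies on the minus strand at chr7:63886351-63938915 (exon length 7531 bases), and its normalised read counts (counts scaled to a common library size) were 10920, 11770, 12000 and 10670 in control replicates 1 to 4. In knockout replicates 1 to 3 they were 802, 876 and 961, from 444, 1275 and 1262 raw counts. The groups were far apart, and all 3 knockout libraries kept a similar remainder. Mean counts were 11338 ± 645 (SD, n = 4) in control and 880 ± 79.8 (SD, n = 3) in knockout, or 7.76% of control. The log2 fold change was -3.69 with an SE of 0.089 (95% interval -3.89 to -3.48, adjusted p = 6.77e-06). In this fit its p was the smallest of all genes tested, which did not hold in every alternative analysis. The genotype labels thus matched the targeted gene in every library. Values are totals per gene, so that the exons from which the remaining knockout counts came cannot be read from them.

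**Figure D1:**
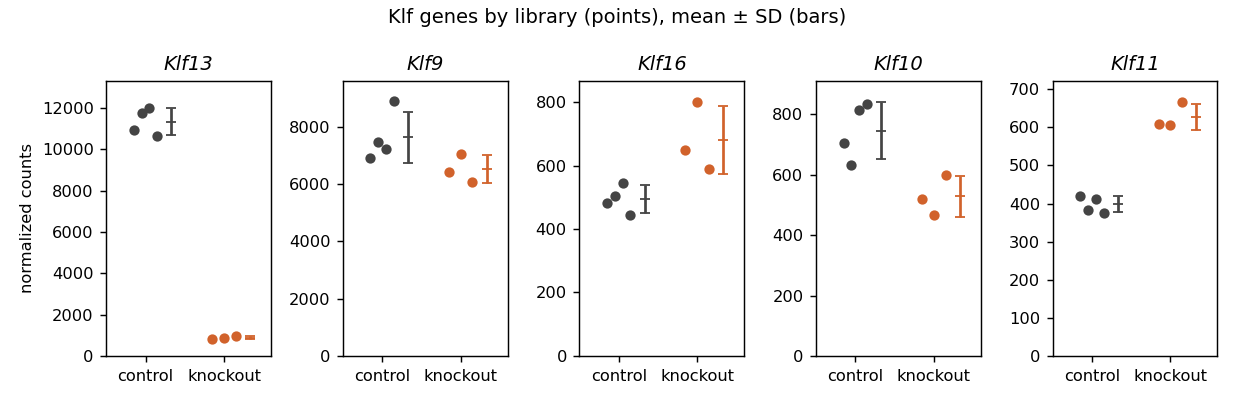
Normalised read counts (y axis, linear from 0) of Klf13, Klf9, Klf16, Klf10 and Klf11 in 4 control and 3 knockout libraries. Points are libraries, and bars show the mean ± SD. Groups are separated for Klf13 and Klf10 (knockout lower) and for Klf16 and Klf11 (knockout higher), and they overlap for Klf9.

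Of the 4 related genes, Klf11 and Klf16 were higher in knockout, Klf10 was lower, and Klf9 was not called. With Klf13 included, 2 of 5 were called higher and 2 of 5 lower, where 11.6% and 12.2% of all genes tested were called, or 23.8% in either direction. The same 2 higher and 2 lower genes had groups that did not overlap, as did 18.3% and 18.0% of all genes, or 36.2% in either direction. In both counts the lower genes include Klf13, which was the deleted gene, and without it only Klf10 is lower. Only Klf13 passed an absolute log2 fold change of 1.

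Klf9 is a close relative of Klf13 and responds to thyroid hormone and glucocorticoids in brain. It lies on the plus strand at chr19:23141226-23166911 (exon length 3263 bases). Its normalised counts were 6916, 7458, 7240 and 8910 in control and 6427, 7044 and 6069 in knockout. The groups overlapped, since knockout replicate 2 exceeded control replicate 1, and control replicate 4 was the highest library. In each of the 3 pairs with the same replicate number, the knockout library was the lower, and the fit with this number as a block gave a log2 fold change of -0.15 (adjusted p = 0.160). Means were 7631 ± 881 (SD, n = 4) and 6513 ± 493 (SD, n = 3). The log2 fold change was -0.23 (SE 0.099, adjusted p = 0.140), and the interval of the fold ran from 0.727 to 1.00. On the log2 scale, the 95% interval reached from -0.46 to 0.0025 and held almost no rise. The value stayed negative and uncalled in all 17 alternative analyses and was -0.12 without control replicate 4.

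Klf16, the other BTEB-like gene, was higher by a modest amount. KLF16 is known as a GC box-binding repressor in brain. The gene lies on the minus strand at chr10:80567124-80577321 (exon length 2674 bases). Normalised counts were 482, 505, 546 and 443 in control and 650, 799 and 590 in knockout. Every knockout library lay above every control library, and knockout replicate 2 was the highest. Means were 494 ± 43.3 (SD, n = 4) and 680 ± 108 (SD, n = 3), with a fold of 1.38 (95% interval 1.12 to 1.69). The log2 fold change was 0.46 (SE 0.127, adjusted p = 0.0367). The call depended on the libraries. Adjusted p was 0.0652 without control replicate 1, 0.0667 without control replicate 2, 0.0679 without control replicate 4, 0.0712 without knockout replicate 1 and 0.115 without knockout replicate 2, where the log2 fold change was 0.33. With the replicate number as a block, the log2 fold change was 0.40 with an adjusted p of 0.0930, so that the call was lost. With library sizes from total counts only it was 0.51 (adjusted p = 0.0576). It was 0.57 (adjusted p = 0.00543) with the ribosomal RNA-linked share as a covariate. Without control replicate 3, whose microglia markers stood apart, the log2 fold change was 0.51 and adjusted p 0.0375.

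Klf14, a further BTEB-like gene that is not among the 5, gave 2, 3, 2 and 0 raw counts in control and 3, 5 and 0 in knockout. At this depth it was close to or at 0 in every library, so it was below the filter, and no fold is given.

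Klf10 and Klf11, both of the TIEG subgroup, went in opposite directions. Klf11 lies on the plus strand at chr12:24651371-24662774 (exon length 4228 bases). Its normalised counts were 420, 384, 413 and 376 in control and 610, 606 and 666 in knockout. Libraries of each group were close together, and the groups were separated by more than the spread within either. Means were 398 ± 21.3 (SD, n = 4) and 627 ± 33.9 (SD, n = 3), a fold of 1.58 (95% interval 1.37 to 1.81). The log2 fold change was 0.66 with an SE of 0.085 and an adjusted p of 0.00267. Klf11 was called higher in all 17 alternative analyses, at 0.62 to 0.70 on the log2 scale.

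Klf10 lies on the minus strand at chr15:38294413-38300707 (exon length 3045 bases). Its product was first described as a TGF-beta-inducible protein. Normalised counts were 705, 634, 813 and 833 in control and 520, 466 and 599 in knockout. All knockout libraries were lower than all control libraries, but knockout replicate 3 and control replicate 2 were close. Means were 746 ± 93.8 (SD, n = 4) and 528 ± 66.7 (SD, n = 3), a fold of 0.708 (95% interval 0.571 to 0.877). The log2 fold change was -0.50 (SE 0.133, adjusted p = 0.0330). Adjusted p was 0.0686 without control replicate 1, 0.0624 without control replicate 3, 0.0952 without control replicate 4, 0.125 without knockout replicate 1 and 0.110 without knockout replicate 2. Upper quartile normalisation gave -0.46 (adjusted p = 0.0551). The call was kept with the replicate block, at -0.44 (adjusted p = 0.0217).

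**Figure D2:**
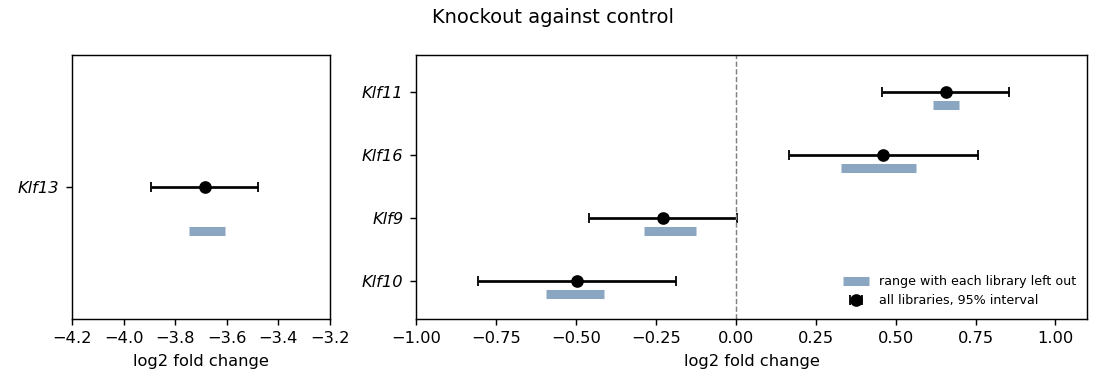
Log2 fold change of knockout against control (x axis) for Klf13 (left panel, own scale) and for Klf11, Klf16, Klf9 and Klf10 (right panel). Points and black bars are the value from all 7 libraries with its 95% interval, and blue bars the range with each library left out in turn. Only the interval of Klf9 crosses 0, with an upper bound of 0.0025.

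The TIEG pair changed its ratio. Taken per kilobase of exon, the ratio of the Klf11 level to the Klf10 level was 0.429, 0.437, 0.366 and 0.325 in control and 0.845, 0.936 and 0.802 in knockout. The means were 0.389 ± 0.0532 (SD, n = 4) and 0.861 ± 0.0684 (SD, n = 3), and no knockout ratio came near a control ratio. The ratio of Klf16 to Klf9, within the BTEB-like genes, was 0.0801 ± 0.0136 in control and 0.127 ± 0.0104 in knockout.

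To compare the genes with each other, levels were expressed as CPM per kilobase of exon. In control, the order was Klf9 (53.2 ± 6.14, SD, n = 4), Klf13 (34.2 ± 1.95), Klf10 (5.57 ± 0.700), Klf16 (4.20 ± 0.368) and Klf11 (2.14 ± 0.114). No neighbours in this order overlapped across the 4 libraries. Klf9 exceeded Klf13 by 1.39 to 1.93 times, and Klf13 exceeded Klf10 by 5.18 to 7.51 times. The place of the upper pair rested on the length used. With the longest annotated transcript (6396 bases for Klf13, 4486 bases for Klf9), Klf13 was at 40.3 ± 2.29 and Klf9 at 38.7 ± 4.47, so that their order turned and their ranges overlapped. This length is longer than the 3263 bases of Klf9 exons that were counted, so that it understates Klf9. The 7531 exon bases of Klf13 are in turn longer than its longest transcript, so that the exon length can understate Klf13. In knockout, the order was Klf9 (45.4 ± 3.43, SD, n = 3), Klf16 (5.78 ± 0.916), Klf10 (3.94 ± 0.498), Klf11 (3.37 ± 0.182) and Klf13 (2.66 ± 0.241). Here the levels of Klf10 and Klf11 overlapped, and the other neighbours did not. With the longest transcript as length, Klf11 (3.37 to 3.71) and Klf13 (2.85 to 3.42) overlapped as well.

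The levels that were gained by Klf16 and Klf11 were small beside the level lost by Klf13. The Klf13 level differed by -31.6 CPM per kilobase between the group means. Klf16 (1.58) and Klf11 (1.23) were higher by 2.81 together, which corresponds to 8.91% of the loss. Klf9 and Klf10 together differed by -9.42. The sum of the 5 levels was 92.8, 98.6, 99.6 and 106 in control and 59.9, 65.3 and 58.3 in knockout, which puts the knockout mean at 61.6% of control. Without Klf13, the sum of the other 4 was 65.1 ± 6.22 in control and 58.5 ± 3.73 in knockout, with overlapping ranges (59.8 to 74.1 and 55.4 to 62.6). In all 3 pairs of the same replicate number this sum was lower in knockout. As a share of the 5, Klf13 went from 34.6% to 4.36% and Klf9 from 53.4% to 74.2%. Klf16 accounted for 4.24% in control and 9.42% in knockout, Klf10 for 5.60% and 6.50%, and Klf11 for 2.17% and 5.54%. With less Klf13 in the sum, these shares rose also for Klf9 and Klf10, whose mean levels were lower in knockout. Of the sum of the 4 without Klf13, Klf9 made up 81.6% in control and 77.6% in knockout, and Klf10 8.57% and 6.80%. Klf16 made up 6.52% and 9.85% of it, and Klf11 3.32% and 5.79%. The ratio of Klf9 to Klf13 was 1.56 ± 0.246 in control and 17.2 ± 2.28 in knockout. With the longest transcript as length, this ratio was 0.964 ± 0.152 in control, with Klf13 the higher on average, and 10.6 ± 1.41 in knockout. The share of Klf9 was then 42.4% and 66.8%, and that of Klf13 44.4% and 6.35%.

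**Figure D3:**
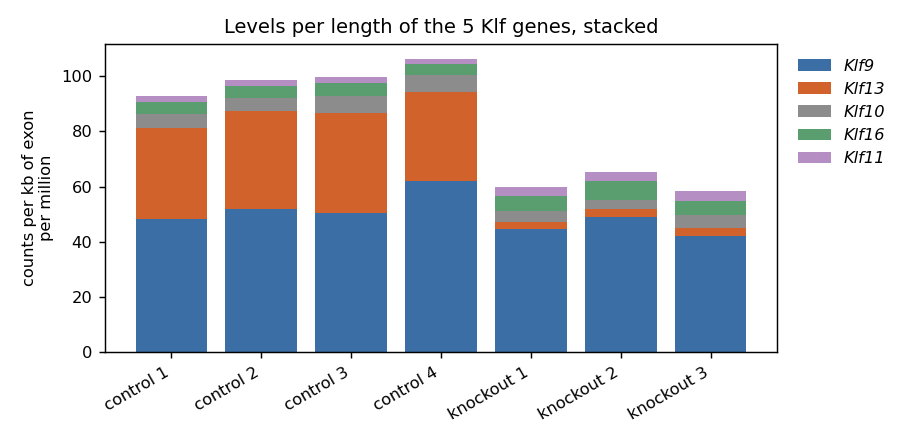
Levels of Klf9, Klf13, Klf10, Klf16 and Klf11 in CPM per kilobase of exon (y axis, from 0), stacked for each of the 4 control and 3 knockout libraries. The stacks reach 92.8 to 106 in control and 58.3 to 65.3 in knockout, and the Klf13 segment is between 32.2 and 36.2 in control and between 2.42 and 2.90 in knockout.

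Genes of the SIN3 complex, to which these Klf proteins can bind, were listed first. All 20 listed genes of the SIN3 and histone deacetylase complex were tested, and 2 were higher, 2 lower and 16 not called, with a median log2 fold change of 0.08 (0.01 without knockout replicate 2). The median of all genes tested was 0.00, and 11.6% of them were higher and 12.2% lower. In either direction 4 of 20 were called, against 23.8% of all genes tested. With single libraries left out, 0 to 2 of its genes were higher and 0 to 3 lower, with 0 in both directions without knockout replicate 1 or without knockout replicate 2. In these fits 12.9% and 11.6% of all genes tested were called. Of the scaffold genes, Sin3b went from 3158 ± 114 (SD, n = 4) to 3703 ± 174 normalised counts (SD, n = 3; log2 fold change 0.23, adjusted p = 0.0237, and 0.0753 with the replicate block). Hdac2, a histone deacetylase, rose from 6878 ± 305 to 8129 ± 348 (log2 fold change 0.24, adjusted p = 0.0227). Sap18, a SIN3-associated protein, fell by 0.25 on the log2 scale (adjusted p = 0.0273, and 0.0596 with the block), and Arid4b fell by 0.23 (adjusted p = 0.0185). The abundant subunits Rbbp4, a histone-binding protein, and Morf4l1, a chromodomain protein, were at 0.00 and 0.01 on the log2 scale. Of 17 alternative analyses, Hdac2 was called in 12, Sin3b and Arid4b in 11 each and Sap18 in 7.

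Coactivators with histone acetyltransferase activity were looked at because Krüppel-like factors can bind them as well. Kat2b (also called PCAF) was lower, with 2262, 2252, 2231 and 2478 normalised counts in control and 1670, 1431 and 1628 in knockout. The groups did not overlap, and the log2 fold change was -0.55 (SE 0.0744, adjusted p = 0.00315), called in all 17 alternative analyses. Its paralog Kat2a (0.04), Ep300 (0.10) and Crebbp (0.12) were not called. This put 1 of 4 past the threshold (25.0%, near the 23.8% of all genes tested).

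Sp factors compete with Krüppel-like factors for GC boxes. Of 9 listed genes 7 were tested, and 2 were higher and 5 not called, with a median log2 fold change of 0.32. This put 28.6% of the list past the threshold, against 23.8% of all genes tested. The number called higher was 0 without knockout replicate 1 or without knockout replicate 2, 1 without control replicate 4 or without knockout replicate 3, and 4 without control replicate 2. The shares of all genes called higher in these fits were 6.35%, 4.57%, 9.47%, 8.27% and 10.1%. Sp8, which in brain is known from interneuron precursors, had 605, 881, 298 and 155 normalised counts in control and 1943, 3079 and 1728 in knockout (log2 fold change 2.22, SE 0.541, adjusted p = 0.0252). The libraries of both groups varied widely, but the lowest knockout library was above the highest control library. The neuron markers had the same highest library in each group, with 171, 212, 147 and 128 CPM in control and 385, 526 and 354 in knockout, and their part in the Sp8 difference was not tested. The call of Sp8 was kept in 14 of 17 alternatives and lost without a filter, without knockout replicate 1 and without knockout replicate 2. Sp4 was at 1255 ± 119 and 1566 ± 25.8 (log2 fold change 0.32, adjusted p = 0.0312, and 0.0520 with the block). The broadly expressed Sp1 and Sp3 were at -0.09 and -0.10 on the log2 scale and not called.

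Because Klf9 is a target of thyroid and glucocorticoid hormones, their receptors and other responsive genes were listed too. Of 7 receptors, 1 was higher and 6 were not called (14.3% called, against 23.8% of all genes tested). This 1 call was lost without control replicate 2, 3 or 4 and without knockout replicate 1 or 2, where 4.57% to 10.1% of all genes were called higher. Thra, the most abundant of them, had means of 18826 ± 2236 and 18528 ± 4393, and Rxra (-0.09) and the glucocorticoid receptor gene Nr3c1 (-0.07) differed by less than their spread. Rxrg, a retinoid X receptor, was higher at a low level, with 39.3 ± 6.34 and 75.6 ± 17.9 (log2 fold change 0.95, adjusted p = 0.0258, and 0.0709 with the block). Of 9 hormone-responsive genes, 2 were higher and 7 not called (22.2% called, near the 23.8% of all genes). Both that rose are deiodinases, which activate or inactivate thyroid hormone. Dio2, the activating enzyme, had 146, 168, 156 and 153 normalised counts in control and 336, 263 and 380 in knockout (log2 fold change 1.07, adjusted p = 0.00349). Dio3, the inactivating enzyme, had 45.9, 60.3, 41.2 and 23.4 in control and 150, 249 and 101 in knockout (log2 fold change 1.97, adjusted p = 0.0122). In neither did the groups overlap, and both were called in all 17 alternative analyses. Dio2 is known from astrocytes, whose markers were also higher in knockout (2263 to 3142 against 4468 to 5259 CPM). Within the knockout group, the library with the highest astrocyte markers, replicate 2, had the lowest Dio2. Within the control group, the library with the highest astrocyte markers, also replicate 2, had the highest Dio2. The part of these markers in the difference was not tested. For Dio3, the libraries of each group stood in the same order as the summed neuron markers (171, 212, 147 and 128 CPM in control, and 385, 526 and 354 in knockout), whose part was not tested either. The further responsive genes Hr (-0.20), Sgk1 (-0.09) and Ddit4 (-0.05) were not called.

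The TGF-beta pathway, from which the TIEG genes take their name, was listed last. All 18 listed genes were tested, with 3 higher, 6 lower and 9 not called and a median log2 fold change of -0.32. In either direction 9 of 18 were called, against 23.8% of all genes tested, of which 11.6% were higher and 12.2% lower. The number called higher was 1 with any of the 7 libraries left out, where 4.57% to 10.1% of all genes were called higher. The number called lower was 3 without knockout replicate 1 and 2 without knockout replicate 2, where 6.58% and 7.08% of all genes were called lower. It was up to 6 otherwise, where 8.12% to 11.1% of all genes were called lower. The negative median rested on control replicate 3 and was 0.04 without it, with 1 gene called higher and 6 lower. In that fit 9.54% of all genes were called higher and 11.1% lower. This library had microglia markers at 1200 CPM. It also had the highest fibroblast and mural markers (1131 CPM) and endothelial markers (22.6 CPM) of the controls. Of the uncalled genes, Tgfb1 had 672, 587, 2632 and 737 normalised counts in control, and Tgfbr1, Tgfbr2 and Tgif1 were likewise highest in control replicate 3. Among the controls, this library was also the highest for the uncalled Ski, Skil and Smurf2 and for the called Smad3, Smad7 and Smurf1. The part of any of these cell type markers in the values was not tested. Whether the list differed from the others was not tested. Smad7, an inhibitory SMAD and target of the pathway, had 2106, 2481, 2594 and 2337 normalised counts in control and 809, 805 and 896 in knockout. The knockout libraries lay close together and far below control, with a log2 fold change of -1.51 (SE 0.0894, adjusted p = 8.20e-05). Smurf1, a ubiquitin ligase that acts on SMADs and receptors, fell by 0.52 (adjusted p = 0.00264). Both were called in all 17 alternative analyses.

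Ltbp1, an extracellular protein that binds latent TGF-beta, was lower in knockout with a wide spread in control. It had 425, 415, 798 and 962 normalised counts in control and 204, 155 and 219 in knockout (log2 fold change -1.76, adjusted p = 0.0123). The groups did not overlap, but control replicates 3 and 4 were well above replicates 1 and 2. The summed fibroblast and mural markers showed the same split, with 318, 257, 1131 and 864 CPM in control and 203, 116 and 265 in knockout, and their part in the result was not tested. Ltbp1 was called in 16 of the 17 alternatives, and its call was lost without knockout replicate 2. The receptors and signal transducers varied in direction. The coreceptor Tgfbr3 fell by 0.67 (adjusted p = 0.0181, and 0.0823 with the block), the ligand Tgfb2 by 0.34 (adjusted p = 0.0288) and Smad3 by 0.30 (adjusted p = 0.0223), whereas the type I receptor Acvr1b rose by 0.38 (adjusted p = 0.0124). Acvr1b was called in all 17 alternatives, Tgfbr3 and Smad3 in 12 and Tgfb2 in 9. The corepressor Tgif2 (0.56, adjusted p = 0.0468) and Smad4 (0.15, adjusted p = 0.0465) were close to the threshold and lost their calls with the block, at adjusted p of 0.109 and 0.131. Of the 17 alternatives, Tgif2 was called in 6 and Smad4 in 3. The repressors Ski (0.10) and Skil (-0.56, adjusted p = 0.0906) were not called, and Skil had an adjusted p of 0.00982 with the block.

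**Figure D4:**
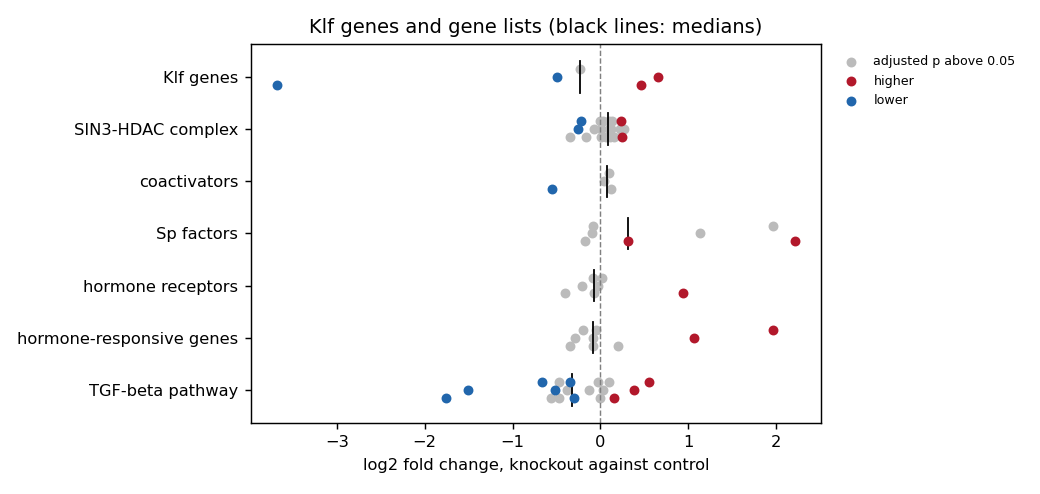
Log2 fold change of knockout against control (x axis) for the 5 Klf genes and for each tested gene of the 6 lists (y axis, points shifted vertically for visibility). Red and blue points passed an adjusted p of 0.05 as higher or lower, grey points did not, and black lines are medians. The median is 0.08 for the SIN3 and histone deacetylase list (0.01 without knockout replicate 2) and -0.32 for the TGF-beta list (0.04 without control replicate 3), which reaches from -1.76 to 0.56.

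Over the 6 lists together, 10 of 65 tested genes were higher and 9 lower (29.2% called, against 23.8% of all genes tested). These counts rested in part on single libraries, with 3 higher and 4 lower without knockout replicate 1 and 3 higher and 3 lower without knockout replicate 2. Without control replicate 4, 6 were higher, and without knockout replicate 3, 5 were lower. The calls over all genes also fell, to 12.9% without knockout replicate 1, 11.6% without knockout replicate 2, 18.4% without control replicate 4 and 16.4% without knockout replicate 3.

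Genes next to the 5 loci were compared with them. At the loci of the other 4 genes, none of the 8 nearest tested genes was called by edgeR, DESeq2 or limma voom, and 0 had an unadjusted p under 0.05, where edgeR called 23.8% of all genes (log2 fold changes of -0.47 to 0.38). The nearest tested genes beside Klf13 were Gm7482 and Gm32633. Gm7482, a processed pseudogene at chr7:63810826-63811330, 75.0 kb from Klf13, had no count in any of the 4 control libraries and 15, 26 and 48 raw counts in knockout. Against a floor of 3 counts per library, which covers counting error only, it was at least 8.17-fold higher. It passed the filter on low counts only through the knockout libraries, so no p is given. Gm32633, a long non-coding RNA gene at chr7:64001885-64020959, 63.0 kb on the other side, went from 263, 213, 237 and 265 normalised counts to 30.7, 29.6 and 35.8 (log2 fold change -2.92, SE 0.162, adjusted p = 6.40e-05). Gm27252 and E030018B13Rik lie inside the span of Klf13 on the opposite strand. Gm27252 had 14.9, 13.1, 5.72 and 24.3 normalised counts in control and 43.3, 26.1 and 60.2 in knockout (log2 fold change 1.55, adjusted p = 0.0503). It was called higher in 6 of 16 alternative analyses, namely with DESeq2's test, with no filter, with scaling by total counts (with or without the 100 highest genes), with the ribosomal RNA-linked covariate and without control replicate 4, with log2 fold changes of 1.15 to 1.96 over the 16. E030018B13Rik had 37.8, 27.2, 18.3 and 27.2 in control and 37.9, 34.4 and 86.8 in knockout (log2 fold change 0.96, adjusted p = 0.125). Only knockout replicate 3 stood clearly above control, and without it the log2 fold change was 0.39 (adjusted p = 0.456). The strand setting of the counting is not given in the sources used here, so reads of Klf13 and of these antisense genes may not be separated where they overlap.

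Likeness to each Klf gene across the 7 libraries was measured as the root mean square difference of centred log2 levels, among 12773 genes with a mean normalised count of at least 100. For Klf13 the most alike were Syt4 (0.168, log2 fold change -3.70) and Ermn (0.172, -3.57), both lower in knockout. For Klf11 they were Prkra (0.0343, 0.62) and Tsku (0.0435, 0.66), and for Klf16 Snx21 (0.0348, 0.47) and Dexi (0.0385, 0.47). For Klf10 they were Peak1 (0.0560, -0.47) and Lypd6 (0.0561, -0.44), and for Klf9 Uck2 (0.0367, -0.23) and Cdv3 (0.0549, -0.22). Since libraries of both groups entered the measure, the similar fold changes follow from this choice. The genes most alike to Klf13 differed from it by more than those chosen for the other 4 members did from theirs.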

How the data were processed

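RNA-seq counts of 7 libraries were used, 4 control and 3 knockout, grouped by the genotype in the sample labels. Libraries were made with the NEBNext Ultra II RNA kit and sequenced on a NovaSeq. The authors used Trimmomatic 0.36 for trimming, STAR 2.5.2b for mapping and Subread 1.5.2 to count uniquely mapped reads in exons. The deposited values are raw counts per gene, not normalised. The submitters' processing notes name GRCm38. Strand setting and annotation release are not given in the sources used here. Of 49315 identifiers, 48970 had a symbol.

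Differences were tested with edgeR 4.0.16 in R 4.3.3 (filterByExpr by group, TMM factors, robust quasi-likelihood test, group as the only term), adjusted by Benjamini-Hochberg over 18352 genes. An adjusted p of at most 0.05 was a call. All tests were two-sided, and each SE was computed as the log2 fold change divided by the root of F. For normalised counts, counts were rescaled from each TMM-scaled library size to the mean over the 7 libraries. The procedure was tested on simulated data.

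The 5 members and all lists were chosen with earlier results of these data known. Genes were named by rule, as the 5 members and Klf14, in each list the 3 genes with the highest counts and up to 3 called genes with the largest fold changes, the nearest tested neighbours of each member, and for each member the 2 genes of most alike pattern. Uncalled neighbours are given as a range, and Arid4b, Tgfb2, Smad3, Smad4, Acvr1b and Tgif2 were named outside this rule because they were called. Tgfb1, Tgfbr1, Tgfbr2, Tgif1 and Smurf2 were named after their values were seen, because they were highest in control replicate 3. A gene of the TGF-beta list and a myelin marker are not reported here and were left out of the counts and sums.

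Across genes, deviations from the group means correlated at 0.105 to 0.442 between control and knockout libraries of the same replicate number (3 pairs) and at -0.509 to 0.181 otherwise, and what a number marks is not given in the labels. A fit with the number as a block was therefore added. The other alternatives were DESeq2 1.42.0, limma 3.58.1 voom, other scalings, other filters, a covariate and leaving out each library. Zinc-finger stretches came from GENCODE M21 and promoters from RefSeq. An alignment of the proteins had been planned, and coding bases were compared in its place.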

Additional observations from a re-analysis of the deposited data

Results flagged for a closer look

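Among the 4 control libraries, 18 values were examined for a library far from the others, of which chance alone sets apart about 1 in 20, and 2 stood apart. The share of Klf13 in the summed level of the 5 Klf genes was 30.3% in control replicate 4, with a gap to the nearest library of 0.861 of the whole range. In the same library Klf9 was at its highest level of 62.1 CPM per kilobase of exon, and Klf13 at its lowest control level of 32.2. The summed microglia markers were at 1200 CPM in control replicate 3, with a gap of 0.973 of the range. Without control replicate 3, Klf13 had a log2 fold change of -3.66, Klf9 of -0.25 (adjusted p = 0.140), Klf10 of -0.46 (adjusted p = 0.0624), Klf16 of 0.51 (adjusted p = 0.0375) and Klf11 of 0.67 (adjusted p = 0.00581).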

How the results depend on the processing

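Klf13 and Klf11 were called in the same direction in all 17 alternatives, and Klf9 was called in none of them. Klf16 was called in 9 of 17 and Klf10 in 11 of 17, each with its direction kept. Klf16 was no longer called with total counts only or with library sizes without the 100 highest genes (both 0.51), or with the replicate block (0.40), and with single libraries left out it was at 0.33 to 0.56. Klf10 was no longer called with upper quartile normalisation (-0.46) and was at -0.59 to -0.41 with single libraries left out. Leaving out libraries changed the genes called higher to between 850 and 1843 (2122 with all), the genes called lower to between 1254 and 2032 (2246 with all), and those higher at the fold threshold to between 335 and 810 (729 with all). It also changed the list genes called higher to between 3 and 9 (10 with all) and lower to between 3 and 10 (9 with all). List genes called higher were 6 with total counts only, 6 without the 100 highest genes in library sizes and 4 without a filter, but 15 with the ribosomal RNA-linked share as a covariate. The shares of all genes called higher moved in the same direction. They were 10.2%, 10.2%, 4.51% and 14.6% in these fits, against 11.6% in the main fit. Without control replicate 3, the median of the TGF-beta list turned from -0.32 to 0.04 and that of the hormone receptors from -0.07 to 0.01. Without knockout replicate 2, the median of the SIN3 list went from 0.08 to 0.01. The cause of these changes was not tested, beyond the smaller number of samples when libraries are left out. With the longest transcript as length, the sum of the 5 levels was 91.0 in control and 49.4 in knockout, that of the 4 without Klf13 50.7 and 46.2, and the Klf13 share 44.4% and 6.35%, since the lengths differ. Of 814 values for 48 further named genes, 662 kept direction and call, 110 lost a call, 15 gained one and 27 changed sign, the last in 7 uncalled genes. The 662 include 16 values of Gm7482, which passed the filter only through the knockout libraries. Genes chosen for a pattern like that of a Klf gene are among the 48 as well. Rbbp4 was at -0.011 with DESeq2's test, -0.0028 with its size factors, -0.0018 without a filter and -0.024 with the covariate, and between -0.021 and 0.046 with single libraries left out. Thra was at 0.014 with upper quartile normalisation, 0.028 with total counts only, 0.029 without the highest genes and 0.12 with the covariate, and between -0.22 and 0.13 with libraries left out. Ddit4 was at 0.0054, 0.0056 and 0.26 with total counts, without the highest genes and with the covariate, and between -0.56 and 0.25 with libraries left out. With the block, Kat2a was at -0.0039. Leaving out libraries put Kat2a at -0.0072 to 0.074, Morf4l1 at -0.038 to 0.073, Rxra at -0.16 to 0.075 and Nr3c1 at -0.11 to 0.019. Among the 5 Klf genes the replicate block changed the call of Klf16 only, and among the other named genes those given in the text and that of Dexi (adjusted p = 0.0681). Klf14 is too low at this depth for a comparison.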
